A study of Homo sapiens with 28 samples.

Results

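The controls of a genome-wide CRISPR knockout screen fell into a pair of classes: guides that match no site in the human genome, and guides that cut genes of the olfactory receptor family. They were chosen by name alone, as guides whose target name begins with NonTargeting and guides whose target symbol has the form of an olfactory receptor gene (OR, a number, letters and a number). The first class held 999 guides (0.913% of the 109367 listed) and the second held 2164 guides (1.98%) against 376 receptor genes out of 19050 gene names. Of these receptors, 292 had 6 guides, 76 had 5 and 8 had 4. All 3163 control guides were tested and no filter on low counts was applied.

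A non-targeting guide loads Cas9 without directing it to the genome, so it reports on cells that carry the library and the nuclease but no cut. Olfactory receptors are G protein-coupled receptors that detect odorants, and most are used only by sensory neurons of the nose, so a guide against one makes Cas9 break DNA in a gene the cell does not need. The break itself can slow or arrest a cell through p53, the transcription factor that answers DNA damage, which is why screens in cells with working p53 often carry cutting controls beside non-cutting ones.

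The screen was done in U2OS, a human osteosarcoma line, with p53 intact (WT) or knocked out (KO). Genomic DNA was taken when the assay began (T0) and again after 96 h with the solvent DMSO or with 5 µM etoposide, a topoisomerase II poison that leaves double-strand breaks, and the guides in it were counted. The 6 groups were therefore WT T0, WT DMSO, WT etoposide, KO T0, KO DMSO and KO etoposide, each with 3 libraries lettered A, B and C, and the cells of all 6 carried the pooled guide library. Titles call the DMSO libraries untreated. Whether the knockout line is 1 clone, and whether lettered libraries came from separate cultures, is not given in the sources used here, so p-values measure only the spread between these libraries. RNA of U2OS cells with intact p53 was counted in 10 further libraries, 2 in each of 5 groups, and is used here for transcript levels. These cells were taken at T0 or after 8 h in medium from other U2OS cells, which were p53 WT or KO and had received DMSO or 31.6 µM etoposide.

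Screen libraries held 30.4 to 48.2 M counts. Of the osteosarcoma markers, the RNA held COL1A1 at a mean of 8560 CPM (counts scaled to a library total of 1 M), SPARC at 2030, VIM at 2260 and RUNX2 at 32.3, whereas COL1A2 was at 0.756 and TWIST1 at 0. Among epithelial markers KRT8 stood at 842 CPM, CDH1 at 4.83 and EPCAM at 1.85.

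Non-targeting guides were the more abundant class from the start. Over the 6 T0 libraries the median non-targeting guide had a mean of 14.7 CPM, 1.7-fold over the 8.65 CPM of the median receptor guide and 1.8-fold over the 8.18 CPM of the median of all guides. The 10th and 90th percentiles were 8.0 and 26.0 CPM for non-targeting guides and 4.08 and 16.1 CPM for receptor guides. Every non-targeting guide carried the prefix HGLibA, the first of the pair of guide collections in the table, whereas receptor guides were split between HGLibA (1090) and HGLibB (1074). Within HGLibA the median receptor guide had 9.19 CPM, so that the gap was 1.6-fold there, and guides against other genes had 8.82 CPM in HGLibA and 7.48 in HGLibB. At the ends of the range, non-targeting guides 0460 and 0538 (named by the last digits of their identifiers) averaged 2.42 and 2.48 CPM at T0, and 0599 and 0722 averaged 52.9 and 53.2 CPM. Among receptor guides the lowest were 1 against OR5AK2 (2.25 CPM) and 1 against OR51B2 (2.26 CPM), and the highest were 1 against OR2T27 (40.5 CPM) and 1 against OR10G2 (42.2 CPM). Because of this gap, each comparison below is read from the change between groups and not from the levels.

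The classes were first compared within each library, as the median log2(CPM + 1) of receptor guides minus that of non-targeting guides, a difference that the scaling between libraries barely touches. In libraries A, B and C it was −0.715, −0.714 and −0.751 in WT T0. It was −0.787, −0.781 and −0.763 in WT DMSO. Every WT DMSO library was thus below every WT T0 library. The mean difference moved by −0.051 (combined SD of both groups 0.024, n = 3 and 3), so receptor guides stood lower against non-targeting guides after 96 h of growth in cells with p53. Summed over guides, receptor counts were 1.271, 1.265 and 1.262 times non-targeting counts at WT T0 and 1.223, 1.219 and 1.244 times in WT DMSO, and these also did not overlap. Non-targeting guides took 1.63, 1.64 and 1.63% of all counts at WT T0 and 1.72, 1.72 and 1.70% in WT DMSO. Receptor guides took 2.07, 2.07 and 2.06% at WT T0 and 2.10, 2.09 and 2.11% in WT DMSO. Both classes therefore held a larger share of the library after growth, and the non-targeting share grew the more, by 0.080 against 0.033 percentage points. With HGLibB receptor guides alone the shift in WT was −0.039 and libraries of the groups overlapped, and with HGLibA guides alone it was −0.040 without overlap.

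A shift in the same direction was measured without p53. The receptor minus non-targeting difference was −0.667, −0.681 and −0.663 in KO T0 libraries. It was −0.694, −0.725 and −0.687 in KO DMSO, where every library was below every KO T0 library. The mean moved by −0.032 (combined SD 0.022, n = 3 and 3). Non-targeting guides went from 1.58% in each KO T0 library to 1.63, 1.64 and 1.63% in KO DMSO, and receptor guides went from 2.07, 2.07 and 2.06% to 2.10, 2.11 and 2.10%. The KO shift minus the WT shift was 0.019 with a combined SD of 0.033, so the genotypes were not separated beyond the spread between libraries. With HGLibB receptor guides alone the KO shift was −0.031 and the groups overlapped, and with HGLibA guides alone it was −0.028 without overlap.

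With etoposide the gap between the classes narrowed in WT, and in KO no move beyond the spread between libraries was measured. The receptor minus non-targeting difference was −0.740, −0.748 and −0.741 in WT etoposide, and all 3 libraries were above the 3 of WT DMSO. The mean moved by 0.034 (combined SD 0.013, n = 3 and 3), a change in favour of receptor guides relative to DMSO. The value at WT etoposide, −0.743 ± 0.004 (SD, n = 3), lay between those of WT T0 (−0.726 ± 0.021) and WT DMSO (−0.777 ± 0.012). With HGLibB receptor guides alone the move was 0.015 and the groups overlapped, and with HGLibA guides alone it was 0.033 without overlap. In KO etoposide the difference was −0.710, −0.702 and −0.702, inside the range of the KO DMSO libraries, and the mean moved by −0.003 (combined SD 0.021). The KO move minus the WT move was −0.037 with a combined SD of 0.025. Growth and etoposide comparisons of a genotype share its DMSO libraries, so their values are not independent of each other.

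Under etoposide the non-targeting share of counts was below that in DMSO in both genotypes, and the receptor share was below it in KO. Non-targeting guides took 1.67, 1.66 and 1.66% in WT etoposide, below all WT DMSO libraries. They took 1.60, 1.59 and 1.62% in KO etoposide, below all KO DMSO libraries. Receptor guides took 2.09, 2.08 and 2.08% in WT etoposide, which overlapped WT DMSO. They took 2.04, 2.04 and 2.06% in KO etoposide, below all KO DMSO libraries. The etoposide change of the share in KO minus that in WT was −0.040 percentage points for receptor guides (combined SD 0.017) and 0.020 for non-targeting guides (combined SD 0.021), both given as a description with no test.

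Before any treatment the genotypes already differed. The receptor minus non-targeting difference was higher in every KO T0 library than in every WT T0 library, by 0.056 in the mean (combined SD 0.023, n = 3 and 3). This came with a non-targeting share of 1.58% in KO against 1.63% in WT, while the receptor share was 2.07% in both. The time between transduction and T0 is not given in the sources used here.

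Cutting other silent genes gave values close to those of receptor guides in 3 of 5 comparisons. A class of 6225 guides against 1089 other genes with 0 counts in all 10 RNA libraries moved against non-targeting guides by −0.050 during growth in WT, by −0.037 in KO and by 0.037 with etoposide in WT. Receptor guides minus these guides moved by less than 0.01 in each of those 3 comparisons, and libraries overlapped. They differed in KO etoposide, where receptor guides fell behind other silent genes by −0.018 (combined SD 0.013) without overlap, and at T0, where KO exceeded WT by 0.015 (combined SD 0.011) without overlap. At T0 the guides against other silent genes also stood higher against non-targeting guides in KO than in WT, by 0.041 (combined SD 0.016) without overlap. Most of the T0 shift of receptor guides was thus shared by them. Guides against 12607 genes transcribed at 1 CPM or more, which include essential genes, moved further from non-targeting guides during growth, by −0.079 in WT and −0.065 in KO. With etoposide they moved by 0.051 in WT (combined SD 0.010) and by 0.032 in KO (0.020). At T0 KO exceeded WT by 0.049 (0.014). All of these were without overlap, so the moves in WT etoposide and at T0 were not particular to receptor guides.

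Per guide, log2 fold changes were estimated with edgeR after TMM scaling, and a guide was called when its quasi-likelihood p, Benjamini-Hochberg adjusted over all 109367 guides, was under 0.05. During growth in WT the median was 0.072 over non-targeting guides, 0.028 over receptor guides and 0.010 over all guides. Of non-targeting guides 75.4% were above 0, of receptor guides 58.0% and of all guides 52.5%. Scaling to the non-targeting guides instead of TMM moved the receptor median to −0.050, so the sign of the receptor class in WT growth is set by the reference while its distance from the non-targeting class is not. In KO growth the medians were 0.054, 0.027 and 0.004 in the same order, and non-targeting scaling moved the receptor median to −0.027. With etoposide in WT the medians were −0.049 for non-targeting, −0.019 for receptor and −0.005 for all guides, and non-targeting scaling moved the receptor median to 0.028. With etoposide in KO they were −0.022, −0.030 and −0.004, and the receptor median was −0.006 with non-targeting scaling. The KO minus WT medians at T0 were −0.045 for non-targeting guides and 0.005 for receptor guides, the latter becoming 0.051 with non-targeting scaling.

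Few control guides were called. During growth in WT, 5 non-targeting guides (0.501%) and 9 receptor guides (0.416%) were called, against 1.54% of all guides. All 5 non-targeting calls and 8 of the 9 receptor calls were higher, a direction called in 0.168% of all guides, and the other receptor call was lower, a direction called in 1.37%. With non-targeting scaling the split turned, with 16 receptor guides called and all 16 lower, a direction then called in 2.98% of all guides. During growth in KO, 1 non-targeting and 3 receptor guides were called, all higher, against 0.609% of all guides (0.0539% higher and 0.555% lower). None of these calls held in all 6 fits that left out 1 of the libraries compared. In WT growth the fits without T0 A, T0 B, T0 C and DMSO A called 5, 3, 1 and 5 receptor guides, of which 5, 3, 0 and 2 were among the 9. Those without T0 A, T0 C, DMSO A and DMSO B called 2, 2, 1 and 2 non-targeting guides, of which 1, 2, 1 and 2 were among the 5. In KO growth the fits without T0 A, T0 B or T0 C called 1 receptor guide each, 1 of the 3, and the fit without DMSO B called 1 that was not among them. The fits without KO T0 A, T0 B or DMSO B called 0 non-targeting guides, and that without KO DMSO A called 2.

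Etoposide called no control guide in WT by edgeR (0 of 999 and 0 of 2164), against 0.372% of all guides. At an unadjusted p under 0.05 there were 85 non-targeting guides (8.51%) and 178 receptor guides (8.23%), against 9.33% of all guides. DESeq2 called 4 non-targeting and 2 receptor guides, and 670 of all 109367 guides. Without WT DMSO A, edgeR called 1 receptor guide. In KO, 2 non-targeting guides, 1 higher and 1 lower, and 7 receptor guides, 1 higher and 6 lower, were called, against 0.841% of all guides (0.632% higher and 0.209% lower). None of the 9 held in all 6 fits that left out 1 library, and without KO etoposide B 1 guide of each class was called, the receptor guide being among the 7 and the non-targeting guide not among the 2. Receptor calls were 11 without KO DMSO A and 4 without KO etoposide A, and non-targeting calls were 5 without KO DMSO A, DMSO B or etoposide A.

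The T0 comparison of KO with WT called the most controls and also the most guides of the whole table (2923). There 30 non-targeting guides (3.0%, with 2 higher and 28 lower in KO) and 62 receptor guides (2.87%, with 29 higher and 33 lower) were called. Both shares were near the 2.67% of all guides (1.37% higher and 1.30% lower). With non-targeting scaling the split was 18 higher and 15 lower for non-targeting guides, and 62 higher and 27 lower for receptor guides, against 2.83% of all guides higher and 0.844% lower. The fits that left out 1 T0 library called 5 to 11 non-targeting and 13 to 26 receptor guides, and 577 to 981 of all guides. Only 1 of the 30 non-targeting calls and 3 of the 62 receptor calls held in every such fit. For the difference between genotypes in the growth response, 0 controls were called by edgeR (background 0.000914%). At an unadjusted p under 0.05 there were 66 non-targeting guides (6.61%) and 137 receptor guides (6.33%), against 7.16% of all guides. For the difference between genotypes in the etoposide response, 0 were called again (background 0.00274%). At that unadjusted p there were 77 non-targeting guides (7.71%) and 187 receptor guides (8.64%), against 8.92% of all guides. DESeq2 also called 0 controls in both, and 8 and 49 of all guides.

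The non-targeting guides called in WT growth show changes that passed the threshold in guides with no target. Their direction is with TMM scaling, and with non-targeting scaling 2 were called, 1 higher and 1 lower. Guide 0327 stood at 18.9, 19.8 and 18.6 CPM in WT T0 and at 26.6, 21.6 and 26.3 CPM in WT DMSO, a rise of 0.39 on the log2 scale (adjusted p = 0.00459, edgeR; 0.0612 without WT DMSO A). Its DMSO libraries were all above its T0 libraries, and in KO its change was 0.19 (adjusted p = 0.451). Guide 0488 went from 12.5, 12.8 and 15.7 to 17.7, 18.6 and 16.1 CPM (0.36, adjusted p = 0.0400), with the highest T0 library close under the lowest DMSO library. Its call was lost without T0 A or B, or without DMSO A or B (up to 0.249). Guide 0813 went from 25.5, 27.0 and 26.7 to 32.0, 33.0 and 31.6 CPM (0.30, adjusted p = 0.0180), and lost its call without any T0 library or DMSO B (up to 0.128). Guide 0972 went from 30, 31.2 and 28.8 to 37.0, 37.6 and 33.9 CPM (0.28, adjusted p = 0.0217), and lost it without T0 A or C, or without DMSO A or B (up to 0.163). Neither of them overlapped between T0 and DMSO. Called guides and receptors named here and below were picked by calls from these same libraries, so their lack of overlap is no separate support.

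Receptor guides called in WT growth had changes of similar or somewhat larger size. Calls do not mark the largest changes: guides of low abundance against OR8B3 (−0.774, adjusted p = 0.126, edgeR) and OR52A5 (0.575, adjusted p = 0.146) were not called. A guide against OR52B6 stood at 7.07, 6.83 and 5.88 CPM in WT T0 and 8.67, 8.79 and 10.5 CPM in WT DMSO (0.52, adjusted p = 0.0256, edgeR). Its call was lost without T0 B, T0 C or DMSO C (up to 0.214), and at T0 it was already higher in KO than in WT by 0.51 (adjusted p = 0.0251). A guide against OR5L2 went from 11.6, 10.7 and 7.95 to 14.6, 14.2 and 12.2 CPM (0.45, adjusted p = 0.0205), and lost its call without T0 C, DMSO A or DMSO B (up to 0.348). T0 library C was the lowest for both guides. A guide against OR2M3 went from 18.2, 19.8 and 19.4 to 21.6, 23.3 and 24.8 CPM (0.29, adjusted p = 0.0483), a call that only the fit without DMSO A kept (up to 0.239 otherwise). The 1 receptor guide that was depleted, against OR5I1, went from 9.24, 9.89 and 9.42 to 7.18, 6.96 and 6.38 CPM (−0.47, adjusted p = 0.0335), without overlap. No fit that left out 1 library kept this call (up to 0.162).

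In KO growth the largest called changes were again gains. The guide against OR10H1, HGLibB_33462, went from 4.44, 5.27 and 5.69 CPM in KO T0 to 7.06, 8.55 and 7.04 CPM in KO DMSO (0.56, adjusted p = 0.0451, edgeR). It stood at 5.46, 5.19 and 4.56 CPM in KO etoposide (−0.57 against DMSO, adjusted p = 0.0370), so it was called in both comparisons, which share the KO DMSO libraries. Its growth call was lost without any 1 library (up to 0.300), and its etoposide call without KO DMSO B or any etoposide library (up to 0.185). A guide against OR7D4, a receptor for the steroid androstenone, went from 10.6, 10.7 and 10.6 to 14.8, 19.3 and 12.5 CPM (0.55, adjusted p = 0.00291; 0.199 without KO DMSO B, the highest library). A guide against OR52B4 went from 26.0, 27.6 and 28.1 to 34.7, 33.9 and 32.4 CPM (0.31, adjusted p = 0.0272), and only the fit without KO DMSO C kept the call (up to 0.190 otherwise). Non-targeting guide 0882 went from 12.9, 13.2 and 12.2 to 15.7, 17.9 and 16.2 CPM (0.39, adjusted p = 0.0316), and only the fit without KO DMSO A kept it (up to 0.193 otherwise). None of these overlapped between KO T0 and KO DMSO, which their selection as called guides makes likely.

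With etoposide in KO, non-targeting guide 0908 stood at 18.2, 17.2 and 24.4 CPM in DMSO and 16.2, 13.9 and 14.5 CPM in etoposide (−0.42, adjusted p = 0.0136, edgeR; 0.287 without KO DMSO C, its highest library, and lost also without etoposide B or C). Guide 0557 moved the other way, from 24, 24.7 and 22.7 to 26.8, 32.5 and 29.4 CPM (0.31, adjusted p = 0.0200), and lost its call without DMSO C, etoposide B or etoposide C (up to 0.213). A guide against OR51S1 went from 7.14, 5.61 and 6.65 to 4.72, 3.81 and 4.06 CPM (−0.61, adjusted p = 0.0301), lost without DMSO A, DMSO C, etoposide B or etoposide C (up to 0.146). A guide against OR13C8 went from 18.9, 19.9 and 20.5 to 15.0, 14.8 and 15.9 CPM (−0.37, adjusted p = 0.0160), lost without DMSO B, DMSO C, etoposide A or etoposide B (up to 0.0834). The 1 receptor guide that was higher, against OR11H2, went from 8.57, 6.84 and 7.11 to 11.6, 9.13 and 10.9 CPM (0.49, adjusted p = 0.0173), lost without DMSO B, DMSO C, etoposide A or etoposide C (up to 0.153). These 5 guides showed no overlap between DMSO and etoposide, which their selection as called guides makes likely. In WT, where no control was called, the extreme values were −0.49 for non-targeting guide 0811 (adjusted p = 0.323) and 0.38 for 0625 (adjusted p = 0.375), and −0.70 for a guide against OR52A5 (adjusted p = 0.117) and 0.68 for a guide against OR8B3 (adjusted p = 0.344). Each of those averaged under 7 CPM at T0.

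The spread of log2 fold changes set the noise of each class. In WT growth the SD was 0.112 over non-targeting guides and 0.165 over receptor guides, of which a part went with abundance. Among guides of 4 to 8 CPM at T0 the SD was 0.167 over 93 non-targeting and 0.174 over 761 receptor guides. From 8 to 12 CPM it was 0.133 and 0.147, from 12 to 16 CPM 0.099 and 0.121, and from 16 to 24 CPM 0.093 and 0.109. At matched abundance in WT growth, therefore, the classes were much closer in spread than over all guides, with receptor guides the wider in each of the 4 ranges. They were also the wider in each range in WT etoposide. From 16 to 24 CPM the SD was 0.099 over non-targeting and 0.091 over receptor guides in KO growth, and 0.118 and 0.108 in KO etoposide. From 4 to 8 CPM in KO etoposide it was 0.183 and 0.181. In the other ranges of KO growth and KO etoposide receptor guides were the wider. The WT growth medians in the 4 ranges were 0.061, 0.057, 0.070 and 0.079 for non-targeting guides and 0.017, 0.021, 0.054 and 0.038 for receptor guides with TMM scaling, so the receptor class was lower in each. The changes of a guide in WT and in KO were at most weakly related. Pearson's r between WT and KO growth, across guides, was 0.034 for non-targeting and 0.125 for receptor guides, and between the etoposide responses 0.083 and 0.004. Whether noise in the counts held r this low was not tested. Guides are not independent replicates, and all come from the same libraries.

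Counts summed over the guides of each gene showed few receptors that moved as genes. In WT growth 3 of 376 receptors were called, all higher, against 6.55% of all genes (1.12% higher). In KO growth 7 were called, all higher, against 3.42% (0.436% higher). With etoposide 1 was called in WT, lower, against 2.18% (0.294% lower), and 10 in KO, all lower, against 4.23% (1.23% lower). The direction depended on the reference: with non-targeting scaling WT growth had 1 receptor higher and 30 lower, where 15.8% of all genes were lower, and KO growth had 1 higher and 4 lower, where 8.20% were lower. With that scaling 4 receptors were called with etoposide in WT, all higher, where 5.02% of all genes were higher. In KO 7 were called, 2 higher and 5 lower, where 4.34% of all genes were higher and 0.546% lower. In WT growth 5 receptors were called without DMSO A and 5 without DMSO C, of which 3 and 1 were among the 3. In KO growth 1 receptor was called without T0 A, which was among the 7, and 3 without DMSO C, of which 2 were. In KO etoposide the fits without etoposide A, B and C called 4, 4 and 5 receptors, of which 4, 3 and 5 were among the 10, and that without DMSO C called 6, of which 4 were.

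OR5AR1 and OR2J2 were the receptors whose calls held in every fit that left out 1 library and with non-targeting scaling. OR5AR1, summed over 4 guides, stood at 15.9, 16.7 and 15.5 CPM in WT T0, 21.9, 20.6 and 19.4 CPM in WT DMSO and 18.9, 17.7 and 17.1 CPM in WT etoposide. It rose by 0.36 in WT growth (adjusted p = 0.00158, edgeR; 0.00995 with non-targeting scaling), without overlap, and 3 of its 4 guides were higher (mean 0.33 ± 0.32, SD over guides). In KO it was at 16.8, 15.0 and 17.3 CPM at T0 and 16.9, 17.5 and 16.4 CPM in DMSO (0.056, adjusted p = 0.830), where the groups overlapped. The difference between genotypes, −0.30, did not pass the test (adjusted p = 0.505). OR2J2, over 6 guides, stood at 37.8, 39.6 and 39.3 CPM in KO DMSO and 31.2, 32.7 and 32.2 CPM in KO etoposide. It fell by 0.27 (adjusted p = 0.00279; 0.00541 with non-targeting scaling), without overlap, and all 6 guides were lower. In WT its etoposide value was 0.040 (adjusted p = 0.852), and the difference between genotypes, −0.31, did not pass the test (adjusted p = 0.159).

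The other receptors called as genes changed by 0.22 or less. OR2M3, a receptor reported to respond to a sulfur odorant of onion, rose by 0.18 in WT growth (adjusted p = 0.0108, edgeR), with 5 of 6 guides higher. OR2T8 rose by 0.16 (adjusted p = 0.0247) with all 5 guides higher. Both calls were lost with non-targeting scaling (0.104 and 0.175), OR2M3 also without WT T0 A, DMSO B or DMSO C, and OR2T8 without WT T0 B, T0 C or DMSO C. In KO growth OR51S1 went from 46.6, 52.3 and 49.0 to 59.2, 55.0 and 57.8 CPM (0.22, adjusted p = 0.00371; 0.0769 without KO T0 A), with all 5 guides higher. OR2AT4, a receptor known to respond to a synthetic sandalwood odorant, went from 50.0, 51.2 and 50.3 to 59.4, 58.4 and 55.5 CPM (0.20, adjusted p = 0.00940; 0.0598 without KO DMSO A; 0.0567 with non-targeting scaling). OR51M1 rose by 0.19 in KO growth (adjusted p = 0.0122) and fell by 0.19 with etoposide in KO (adjusted p = 0.0106), from 49.1, 52.5 and 51.2 CPM at T0 to 55.5, 57.9 and 60.7 in DMSO and 49.6, 50.8 and 51.2 in etoposide. Its 5 guides all followed the gene in both comparisons, which share the DMSO libraries; its growth call was lost without KO T0 A or DMSO C and with non-targeting scaling (0.069), and its etoposide call without DMSO C or etoposide A.

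OR2M5 went from 75.0, 74.6 and 74.9 to 63.6, 63.4 and 70.1 CPM with etoposide in KO (−0.18, adjusted p = 0.00891, edgeR; lost without etoposide A or B, up to 0.0796), with all 6 guides lower. OR12D3, the 1 receptor called with etoposide in WT, went from 64.6, 65.0 and 70.0 to 58.0, 59.7 and 58.2 CPM (−0.18, adjusted p = 0.0148), and 4 of its 5 guides were lower. It lost the call without WT DMSO C, etoposide A or etoposide C (up to 0.151) and with non-targeting scaling (0.060). OR2M3 and OR2M5 are close relatives in sequence within 1 cluster on chromosome 1. Guide sequences were not used here, so how many control guides match more than 1 receptor gene was not tested.

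Most receptors had guides that disagreed. All guides of a gene were higher in WT growth for 25 of 376 receptors and lower for 5, and in KO growth for 17 and 2. With etoposide all were higher for 5 and lower for 15 in WT, and for 3 and 20 in KO. These directions are with TMM scaling and shift with the receptor class as above. The same counts over all genes are not given here, so whether receptors differ from other genes in this was not tested. The median SD among the guides of a receptor was 0.148 in WT growth, about as wide as the whole class (0.165), and the means of receptors had an SD of 0.075. At the ends of that range, among receptors not called, the mean over guides in WT growth was −0.21 ± 0.24 for OR5C1 and −0.21 ± 0.23 for OR5H14 (SD over 5 and 4 guides). In KO growth it was −0.21 ± 0.29 for OR8J1 and −0.20 ± 0.30 for OR6C4. With etoposide in WT it was 0.18 ± 0.14 for OR4S1, 0.18 ± 0.20 for OR4X2 and −0.20 ± 0.19 for OR10C1, and in KO 0.18 ± 0.28 for OR13C5 and 0.20 ± 0.24 for OR6C4.

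Values by receptor class and chromosome are a description, and no difference between them was tested. The 52 receptors of families 51 to 56, the fish-like class I, had a median guide change of 0.028 in WT growth and 0.034 in KO growth, and the 324 of families 1 to 14 had 0.028 and 0.025, with TMM scaling. By chromosome (RefSeq, GRCh38.p14), 165 receptors lay on chromosome 11, 58 on chromosome 1 and 25 on chromosome 9. Their guides moved against non-targeting guides in WT growth by −0.043 (combined SD 0.035), −0.053 (0.026) and −0.050 (0.059). Over the 10 chromosomes with 10 or more receptors the value ran from −0.019 on chromosome 14 to −0.074 on chromosome 7, and it was below 0 on each. With etoposide in WT it ran from −0.024 on chromosome 19 and −0.021 on chromosome 6 to 0.073 on chromosome 9, and was above 0 on 8 of 10. With etoposide in KO it ran from −0.053 on chromosome 6 to 0.084 on chromosome 12 (combined SD 0.047). At T0 the KO minus WT value ran from −0.014 on chromosome 3 to 0.116 on chromosome 17 and was above 0 on 9 of 10. Each chromosome is set against the same non-targeting guides, so the values are not independent.

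Receptor transcripts were close to absent in the RNA of U2OS cells. Of 371 receptors matched by symbol, 262 had 0 counts in all 10 libraries, which held 16.8 to 20.3 M counts each, and 91 of the other 109 had 10 counts or fewer in total. All receptors together took 0.00164 to 0.00365% of counts. Only 3 reached a mean of 1 CPM: OR2W3 with a lowest, median and highest value of 8.13, 11.9 and 26.0 CPM, OR51B5 with 1.19, 2.0 and 4.43 CPM, and OR3A2 with 0.641, 1.14 and 1.85 CPM. OR2W3 was at 12.9 and 10.9 CPM at T0. It was at 26.0 and 23.5 CPM in medium from WT DMSO cells, 20.3 and 13.8 in that from KO DMSO cells, 9.16 and 9.27 in that from WT etoposide cells and 10.1 and 8.13 in that from KO etoposide cells. Both etoposide medium groups were below both DMSO medium groups, with the T0 libraries in between, and these differences were not tested here. Whether these counts come from neighbouring or overlapping genes was not tested. Guides against the 262 receptors at 0 had a median change of 0.026 in WT growth (1511 guides) and those against the 109 detected receptors 0.037 (625 guides), with TMM scaling. Restricted to the receptors at 0, the shift against non-targeting guides was −0.056 in WT growth and −0.037 in KO growth.

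Other chemosensory genes, chosen by name, were set beside the olfactory receptors. Whether they are silent in U2OS was not tested. Among 37 receptors for taste, trace amines and pheromone-like cues, 1 was called on summed counts in WT growth (6.55% of all genes), the bitter taste receptor TAS2R16, which rose by 0.15 (adjusted p = 0.0401, edgeR). The call was lost with non-targeting scaling (0.238) and without T0 A or B, or DMSO B or C (up to 0.199). KO growth, WT etoposide and KO etoposide (3.42, 2.18 and 4.23% of all genes) called 0 of the 37, with lowest adjusted p of 0.110 (VN1R4), 0.296 (TAS2R16) and 0.0876 (TAS2R60) by edgeR. Of 8 olfactory signalling genes 0 were called in any of the 4 comparisons, with a lowest adjusted p of 0.305 (GNAL, KO growth). On summed counts with TMM scaling, the median log2 fold changes of the 37 were 0.023 in WT growth, 0.035 in KO growth, −0.013 with etoposide in WT and −0.019 with etoposide in KO. Over all genes they were 0.005, 0.005, 0.000 and −0.004. Per guide, the 262 guides against all 45 of these chemosensory genes had medians of 0.053, 0.030, −0.027 and −0.013. In WT growth this lay between non-targeting (0.072) and receptor guides (0.028). At T0 their KO minus WT median was −0.036, closer to non-targeting (−0.045) than to receptor guides (0.005).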

How the data were processed

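Guides were counted in 18 screen libraries and transcripts in 10 RNA libraries. The authors deposited raw counts, 1 whole number per guide or gene symbol and library. Bowtie2 (screen), DESeq2 (both assays) and the build hg19 (RNA) are named, without versions, per the submitters' processing notes. The guide library is not given in the sources used here. No listed guide averaged fewer than 62.6 counts over the libraries, so guides with fewer reads may have been removed before deposit. The authors' table of RNA comparisons was not used.

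Per library, CPM is a count scaled to a library total of 1 M, and class levels are medians of log2(CPM + 1) with a pseudocount of 1. These have SDs over 3 libraries and no p-value. Guide counts, and counts summed per gene, were fitted with edgeR 4.0.16 (TMM scaling, quasi-likelihood test, two-sided, 12 residual degrees of freedom) over all 18 libraries in R 4.3.3, and Benjamini-Hochberg adjusted over all 109367 guides or 19050 genes with a threshold of 0.05. The script was tested on simulated data. DESeq2 1.42.0, scaling to the non-targeting guides, a minimum mean of 200 counts, a replicate block and leaving out each library were alternatives. The labels name no molecular identifiers, so PCR copies of 1 molecule count separately.

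Named guides are, per comparison and class, the 2 highest and 2 lowest called, or the extremes where none was called. Named receptors are the 2 highest and 2 lowest by mean over guides plus up to 3 called in each direction. Abundance extremes and the 3 highest transcripts are also named. The members and lists were chosen with earlier results of these data known.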

Additional observations from a re-analysis of the deposited data

How the results depend on the processing

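The receptor minus non-targeting shifts kept their sign for WT growth, KO growth, WT etoposide and the T0 genotype comparison in every alternative run, including fits that left out 1 library, where they ran from −0.063 to −0.044, −0.039 to −0.020, 0.029 to 0.041 and 0.044 to 0.063. The 1 shift that left the spread between libraries was WT etoposide, which went from 0.034 to 0.015 with HGLibB receptor guides only. That alternative, HGLibA guides only, and guides of 8 to 20 CPM at T0 were chosen after seeing the data. Without a test of their own, the differences between genotypes (0.019 for growth and −0.037 for etoposide) and the KO etoposide shift stayed within 1 SD of these values in each alternative.

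Counts of calls moved more, and the cause was not tested. Scaled to the non-targeting guides, non-targeting calls were 2 in WT growth (5 with TMM), 0 in KO growth (1) and 1 in WT etoposide (0). Receptor guide calls were then 16 in WT growth (9), 1 in KO growth (3) and 1 in WT etoposide (0), and receptor gene calls 31 in WT growth (3) and 4 in WT etoposide (1). Over all guides the calls were then 3294 in WT growth (1683), 1209 in KO growth (666) and 744 in WT etoposide (407). Over all genes they were 3021 in WT growth (1247) and 972 in WT etoposide (416). DESeq2 called 10, 6, 4, 9 and 51 non-targeting guides in WT growth, KO growth, WT etoposide, KO etoposide and at T0, and 17, 8, 2 and 18 receptor guides in the first 4. Of all 109367 guides DESeq2 called 2240, 971, 670, 1465 and 4304 in the same order. A fit on the libraries compared alone called 0 non-targeting guides in KO growth, 1 non-targeting and 1 receptor guide in KO etoposide, and 94 and 184 at T0, where the fit over all libraries called 30 and 62. Of all 109367 guides it called 492 in KO growth, 488 in KO etoposide and 9012 at T0. The fit over all libraries called 2923 of them at T0. Leaving out 1 library gave 1 to 6, 0 to 2, 1 to 5 and 5 to 11 non-targeting calls in WT growth, KO growth, KO etoposide and at T0. It gave 1 to 7, 1 to 4, 0 to 1, 1 to 11 and 13 to 26 receptor guide calls in WT growth, KO growth, WT etoposide, KO etoposide and at T0. Over all guides it gave 973 to 1424, 338 to 565, 191 to 323, 511 to 830 and 577 to 981 calls in that order. Receptor gene calls then ran from 3 to 5, 1 to 7, 0 to 1 and 4 to 13 in WT growth, KO growth, WT etoposide and KO etoposide. Calls over all genes ran from 853 to 1132, 431 to 565, 256 to 418 and 519 to 682.

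With the letter as a replicate block, non-targeting calls were 2 in KO growth and 5 in KO etoposide, and receptor gene calls 5 in WT growth, and the block moved no other count of calls past 1.5 times. Same-letter libraries of different groups deviated together only weakly (45 pairs, r from −0.011 to 0.10, median 0.011). Within KO the 9 same-letter pairs ran from 0.030 to 0.10, with 3 over 0.1, against −0.096 to −0.0041 for different letters. Within WT they ran from 0.011 to 0.034 against −0.024 to 0.0083, so in each genotype same letters correlated best, a hint from the data and not the design. The letters were not used as pairs. Spread was wider among the low guides, with an SD of change of 0.167 at 4 to 8 CPM against 0.093 at 16 to 24 CPM among non-targeting guides in WT growth. Whether sequencing depth set this was not tested.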
